A study of Mus musculus with 2 samples.

Results

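The annexin genes Anxa1 to Anxa7 and the S100 genes S100a6, S100a10 and S100a11 were read in sorted lung epithelial cells of tumour-bearing and control mice. The members were chosen by symbol, and all 10 were listed in both tables, among 15113 genes listed in at least 1 of them. The level of S100a6 in the tumour-bearing library was 3.17 times that of the control, and no other of the 10 was past 2-fold. Anxa1, S100a11, Anxa3 and Anxa2 were 1.31-fold to 1.45-fold higher, and Anxa6 was 1.66-fold lower. The best-known pair of the family, Anxa2 and S100a10, lay on opposite sides of 1, S100a10 being 1.19-fold lower from 333 and 282 reads.

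The data comprised 2 RNA-seq libraries, 1 per group, of CD45-negative, Sftpc-positive cells sorted from dissociated lung of C57BL/6 mice aged 6 to 8 weeks. The tumour-bearing group had received 1000000 luciferase-labelled LLC cells, a mouse Lewis lung carcinoma line, under the skin of the back, a model of spontaneous lung metastasis. The control group was wild type and carried no tumour. The sources used here do not say how many animals stand behind each library. The comparison addressed how lung epithelial cells differ in a host with a distant tumour, in the setting the title names a pre-metastatic niche. With 1 library per group there is no replicate check and no p-value. Every interval below is an exact or normal-theory 95% interval from read numbers and covers counting error only.

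Annexins are cytosolic proteins that bind acidic phospholipids when calcium rises. They bridge membranes during exocytosis, membrane repair and endosome traffic. S100 proteins are small calcium-binding dimers. S100A10, S100A11 and S100A6 dock onto annexins, so that a dimer can hold 2 annexins and with them 2 membranes. In alveolar type 2 (AT2) cells annexins A2 and A7 are known for promoting fusion of lamellar bodies, the surfactant stores, with the plasma membrane. Annexin A1 is known as a protein induced by glucocorticoids that dampens inflammation.

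The 3 S100 members lie on chromosome 3 of mm10. S100a11 (GeneID 20195, 93520496 to 93526288) and S100a10 (GeneID 20194, 93555117 to 93564645) are 28828 bases apart, and S100a6 (GeneID 20200, 90612894 to 90614414) lies in the main S100 cluster. The annexins are dispersed. Anxa1 (GeneID 16952) lies on chromosome 19, 20373434 to 20390671, and Anxa2 (GeneID 12306) on chromosome 9, 69453683 to 69491792. Anxa3 (GeneID 11745) lies on chromosome 5, 96793385 to 96845968, and Anxa4 (GeneID 11746) on chromosome 6, 86736840 to 86793634. Anxa5 (GeneID 11747) lies on chromosome 3, 36448923 to 36475887, and Anxa6 (GeneID 11749) on chromosome 11, 54978953 to 55033471. Anxa7 (GeneID 11750) lies on chromosome 14, 20455261 to 20480133.

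The promoter table of RefSeq (GRCm38.p6, the assembly mm10 denotes) held 7 of the 10 genes, and S100a10, Anxa3 and Anxa6 had no entry. The 250 bases before the transcription start are shown for the 4 of those 7 genes whose ratio interval lay above 1, and for Anxa5, whose interval included 1. Anxa4 and Anxa7, the others of the 7, were searched but are not printed. Capitals mark matches, on either strand, to the TATA box (TATAAA), AP-1 (TGANTCA), the GC box (GGGCGG), the CCAAT box (CCAAT), STAT (TTCNNNGAA) and TEAD (CATTCC). The windows are chr3:90612644-90612893 on the plus strand for S100a6, chr3:93520246-93520495 plus for S100a11, chr9:69453433-69453682 plus for Anxa2, chr19:20390672-20390921 minus for Anxa1 and chr3:36475888-36476137 minus for Anxa5.
S100a6: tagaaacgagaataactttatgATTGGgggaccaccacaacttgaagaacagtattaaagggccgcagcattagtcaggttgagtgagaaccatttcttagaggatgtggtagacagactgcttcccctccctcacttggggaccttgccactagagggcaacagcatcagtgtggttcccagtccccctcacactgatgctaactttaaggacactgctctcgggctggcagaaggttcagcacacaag
S100a11: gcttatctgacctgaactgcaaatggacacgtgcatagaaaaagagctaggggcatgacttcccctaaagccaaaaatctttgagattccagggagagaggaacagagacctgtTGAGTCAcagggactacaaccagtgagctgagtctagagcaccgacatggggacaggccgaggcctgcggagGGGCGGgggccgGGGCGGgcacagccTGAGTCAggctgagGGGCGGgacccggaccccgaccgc
Anxa2: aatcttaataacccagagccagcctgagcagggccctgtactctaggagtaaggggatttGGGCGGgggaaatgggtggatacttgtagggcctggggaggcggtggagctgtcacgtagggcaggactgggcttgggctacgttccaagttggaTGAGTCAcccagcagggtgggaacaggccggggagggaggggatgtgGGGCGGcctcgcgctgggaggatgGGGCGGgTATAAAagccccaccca
Anxa1: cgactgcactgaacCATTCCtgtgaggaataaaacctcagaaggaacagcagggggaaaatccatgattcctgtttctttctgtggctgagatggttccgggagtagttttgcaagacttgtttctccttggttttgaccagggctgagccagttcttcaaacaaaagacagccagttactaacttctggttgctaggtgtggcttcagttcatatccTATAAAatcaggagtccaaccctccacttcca
Anxa5: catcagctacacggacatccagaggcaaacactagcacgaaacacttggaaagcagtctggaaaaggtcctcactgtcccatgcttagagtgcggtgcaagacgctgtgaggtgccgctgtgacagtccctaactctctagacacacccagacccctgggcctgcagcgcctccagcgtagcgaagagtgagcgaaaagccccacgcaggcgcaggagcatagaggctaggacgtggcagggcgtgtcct

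The windows of S100a11 and Anxa2 both held the AP-1 letters, at 136 and 38 bases before the start in S100a11 and at 95 bases in Anxa2. AP-1 letters occurred in 6.75% of the 32851 promoter windows of the same length. S100a11 and Anxa2 also held 3 GC boxes each, a motif present in 32.7% of windows. Of the genes not printed, Anxa7, whose ratio interval included 1, held GC boxes too. Anxa4, whose interval lay below 1, held none of the motifs. The S100a6 window held 1 CCAAT box, on the minus strand and found in 33.8% of windows, and none of the other letters. Anxa1 held a TATA box 32 bases before its start and TEAD letters at 236 bases, which 12.4% and 12.6% of windows hold. Anxa2 had TATA letters at 17 bases. STAT letters, present in 7.02% of windows, and every other motif searched were absent from the Anxa5 window, and STAT letters from all 9 windows of the 7 genes. GC content ranged over the printed windows from 46% in Anxa1 to 62.4% in Anxa2, against a median of 52.4% over all windows. No motif overlapped another in the printed windows. These are letter matches and not measured binding.

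All 10 genes were well read, with 186 to 2506 reads per library. Levels are given in RPKM, reads per kilobase of gene and per 1000000 reads, so that genes can be set beside each other. Summed over the 10, the control stood at 1847 RPKM and the tumour-bearing library at 2245 RPKM, or 0.361% and 0.458% of all RPKM. The 7 annexins summed to 1122 and 1203 RPKM (1.07-fold), and the 3 S100 genes to 725 and 1042 RPKM (1.44-fold). Of the S100 difference of 318 RPKM, S100a6 made up 105 RPKM.

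**Figure D1:**
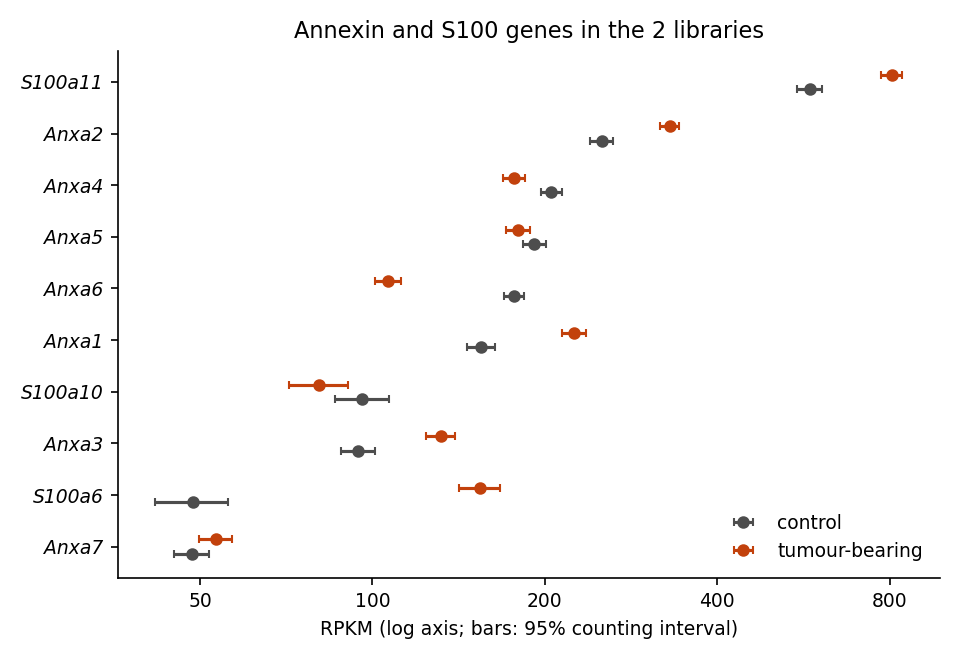
RPKM of each of the 10 genes (rows) in the control (grey) and the tumour-bearing (orange) library, on a log axis, with 95% counting intervals as bars and genes in the order of the control. S100a11 is highest in both, at 580 and 808 RPKM, and S100a6 moves from 48.5 to 154 RPKM.

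S100a6, also called calcyclin, is an S100 protein of proliferating epithelial and stromal cells that binds annexins and the calcyclin-binding protein CacyBP. It was at 48.5 RPKM (186 reads) in the control against 154 RPKM (596 reads) in the tumour-bearing library. The intervals of these levels, 41.8 to 56 and 142 to 167 RPKM, did not overlap. The ratio was 3.17 (2.69 to 3.76), and the log2 ratio with 1 RPKM added to each level was 1.65. S100a6 ranked 1235th of all genes by RPKM in the control library and 367th in the tumour-bearing one. Of all genes tested, 3.06% had a higher log2 ratio.

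S100a11, or calgizzarin, is the partner of annexin A1 and also binds annexin A2. It was at 580 RPKM (1560 reads) in the control against 808 RPKM (2194 reads) in the tumour-bearing library. It was the most abundant of the 10 in both, 65th and 43rd of all genes. The ratio was 1.39 (1.31 to 1.49). A processed pseudogene, S100a11-ps on chromosome 12, can share reads with it and had no row of its own in either table.

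S100a10, or p11, is an S100 protein that has lost calcium binding and holds annexin A2 in a tetramer at the cell surface, where it also binds plasminogen. It was at 96 RPKM (333 reads) in the control against 80.5 RPKM (282 reads) in the tumour-bearing library. Its control level was 1.19-fold higher (1.01 to 1.40), and the intervals of the levels, 86 to 107 and 71.4 to 90.5 RPKM, overlapped. S100a10 was therefore the S100 member on the lower side, and the one whose difference was smallest against its counting error.

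Among the 7 annexins of the 10 genes, Anxa1 had the highest ratio. It was at 155 RPKM (1152 reads) in the control against 225 RPKM (1690 reads) in the tumour-bearing library, a ratio of 1.45 (1.35 to 1.57). Anxa3, a small annexin linked to membrane fusion, was at 94.5 RPKM from 816 reads and at 132 RPKM from 1147 reads, a ratio of 1.39 (1.27 to 1.53). Anxa2, the annexin of the S100A10 tetramer, was at 251 RPKM from 1843 reads and at 330 RPKM from 2445 reads, a ratio of 1.31 (1.24 to 1.40). In each of these 3 genes the tumour-bearing library was higher and the intervals of the levels did not overlap.

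Anxa6 is the annexin with a doubled core, known for binding cholesterol-rich endosomes. It was at 177 RPKM (2506 reads) in the control against 107 RPKM (1527 reads) in the tumour-bearing library. Its control level was 1.66-fold higher (1.55 to 1.77), and Anxa6 moved from 302nd to 536th by RPKM. It had the lowest log2 ratio of the 10, at -0.72, with 88.1% of all genes tested above it.

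Anxa4, an annexin of secretory epithelia, was at 205 RPKM (2192 reads) in the control against 177 RPKM (1907 reads) in the tumour-bearing library. Its control level was 1.16-fold higher (1.09 to 1.24). Anxa5, the phosphatidylserine binder used as a stain for dying cells, was at 192 RPKM from 1778 reads and at 180 RPKM from 1682 reads, a ratio of 0.937 (0.876 to 1.002). Anxa7, or synexin, was at 48.3 RPKM from 764 reads and at 53.2 RPKM from 850 reads, a ratio of 1.10 (0.998 to 1.22). For Anxa5 and Anxa7 the interval of the ratio included 1, and a difference within those bounds was not detectable at this depth. For Anxa5 that holds only for the values as deposited, since with trimmed-mean scaling, upper-quartile scaling or centring on the median its interval lay below 1, with upper limits of 0.968, 0.932 and 0.963.

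**Figure D2:**
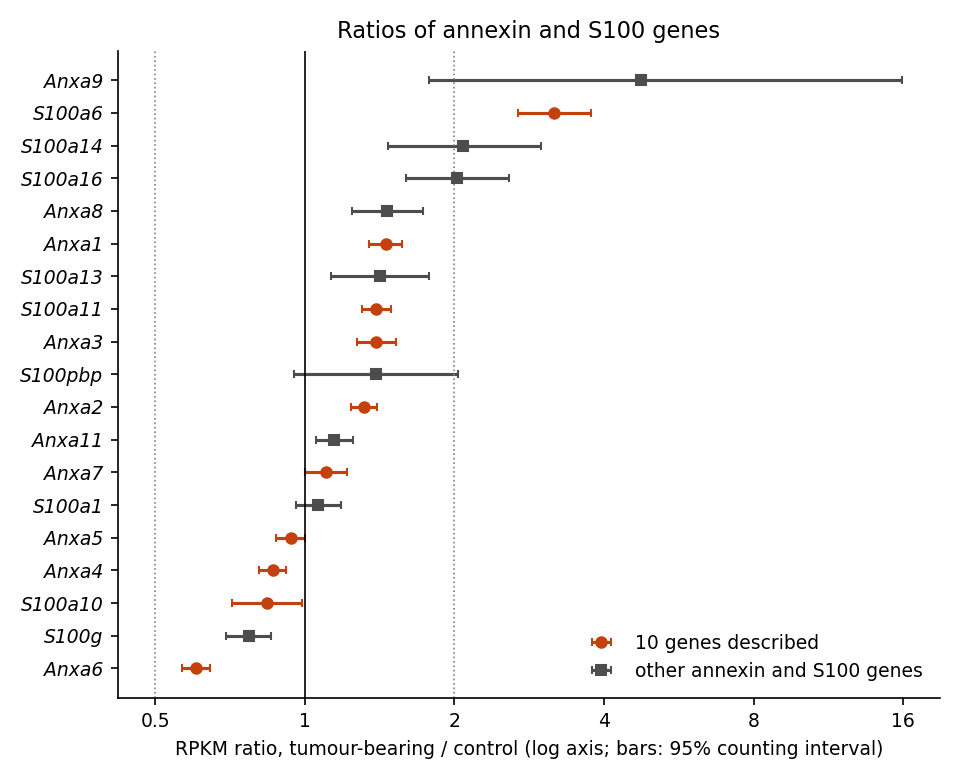
Ratio of RPKM, tumour-bearing over control, on a log axis with 95% counting intervals, for the 10 genes (circles) and the other annexin and S100 genes with reads in both libraries (squares). The solid line marks 1 and the dotted lines 2-fold, and S100a6 at 3.17 is the circle beyond them.

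By the rule of at least 2-fold on the log2(RPKM + 1) scale, 1 of the 10 was higher and 0 were lower, against 9.38% and 6.53% of the 12288 genes tested, those whose level reached 1 RPKM in either library. At 1.5-fold, 1 was higher (S100a6) and 1 lower (Anxa6), against 19.4% and 16.1% of all genes. With 10 genes, counts this small cannot be told apart from the background at either threshold. The counting interval of the ratio lay above 1 for 5 of the 10 and below 1 for 3, against 33.2% and 26.5% of genes with recovered reads. Genes with few reads seldom pass that rule, and none of the 10 had few. The median log2 ratio of the 10 was 0.27, with 6 above 0 and 4 below, where 53.8% of all genes tested were above 0, and the median over all genes tested was 0.06, with a middle range from -0.36 to 0.45 (25th to 75th percentile).

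**Figure D3:**
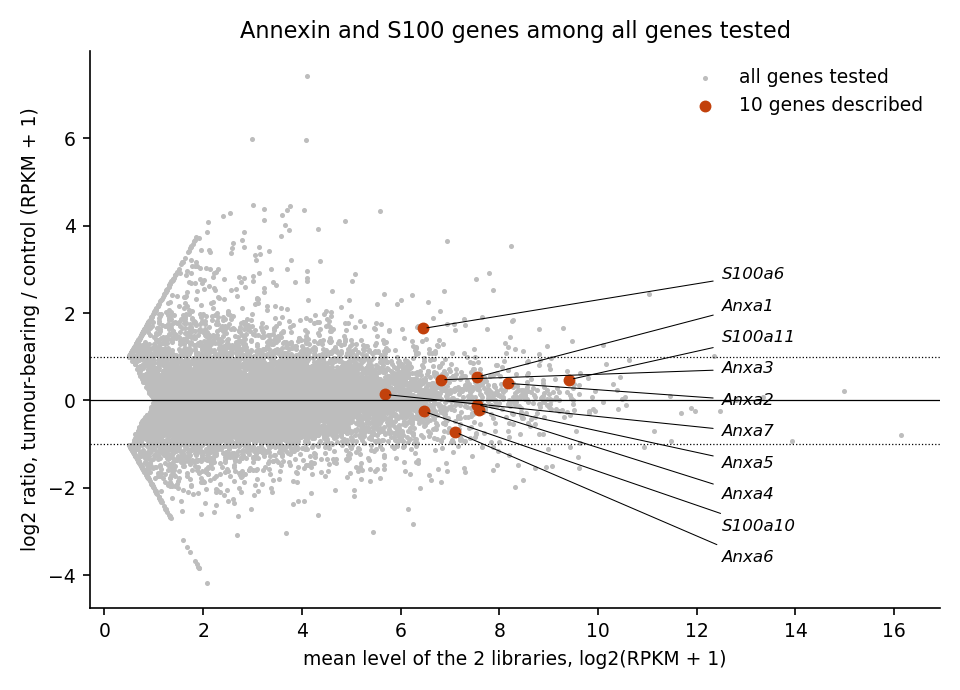
Log2 ratio (1 RPKM added) against mean level for 12288 genes (grey points) and the 10 genes (orange, named), with lines at 0 and at 2-fold. The 10 lie in the more abundant part of the cloud, and 9 of them fall between the 2-fold lines.

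The order of the levels differed between the libraries. In the control it ran from S100a11 through Anxa2, Anxa4, Anxa5, Anxa6, Anxa1, S100a10, Anxa3 and S100a6 to Anxa7. The neighbours Anxa4 and Anxa5, Anxa5 and Anxa6, S100a10 and Anxa3, and S100a6 and Anxa7 had overlapping intervals there. In the tumour-bearing library Anxa1 took the place after Anxa2, S100a6 stood 6th in place of 9th, and Anxa6 stood 8th in place of 5th. There, Anxa5 and Anxa4 were the neighbours with overlapping intervals.

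Because annexins work with S100 dimers, the transcript ratios of 7 pairs were set side by side. These are ratios of RPKM and not of protein. Anxa2 per S100a10 was 2.62 (2.33 to 2.94) in the control against 4.10 (3.63 to 4.64) in the tumour-bearing library, 1.57-fold higher (1.32 to 1.86). Anxa1 per S100a11 was 0.267 and 0.278, a fold of 1.04 with an interval of 0.945 to 1.15. Anxa2 per S100a11 was 0.433 and 0.409, a fold of 0.943 (0.863 to 1.03). Anxa1, Anxa2 and S100a11 thus kept their proportions within these bounds, while S100a10 did not keep step with Anxa2.

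Against S100a6 each of the 3 annexins compared was lower in the tumour-bearing library. Anxa5 per S100a6 was 3.96 and 1.17, 3.39-fold lower (2.84 to 4.05). Anxa2 per S100a6 was 5.19 and 2.15, 2.42-fold lower (2.03 to 2.88). Anxa6 per S100a6 had the widest difference of the 7 pairs, at 3.64 and 0.692, 5.26-fold lower (4.41 to 6.27). The RPKM of S100a6 was thus below that of Anxa6 in the control and above it in the tumour-bearing library. Anxa6 per S100a11 was 0.304 and 0.132, 2.31-fold lower (2.11 to 2.53).

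**Figure D4:**
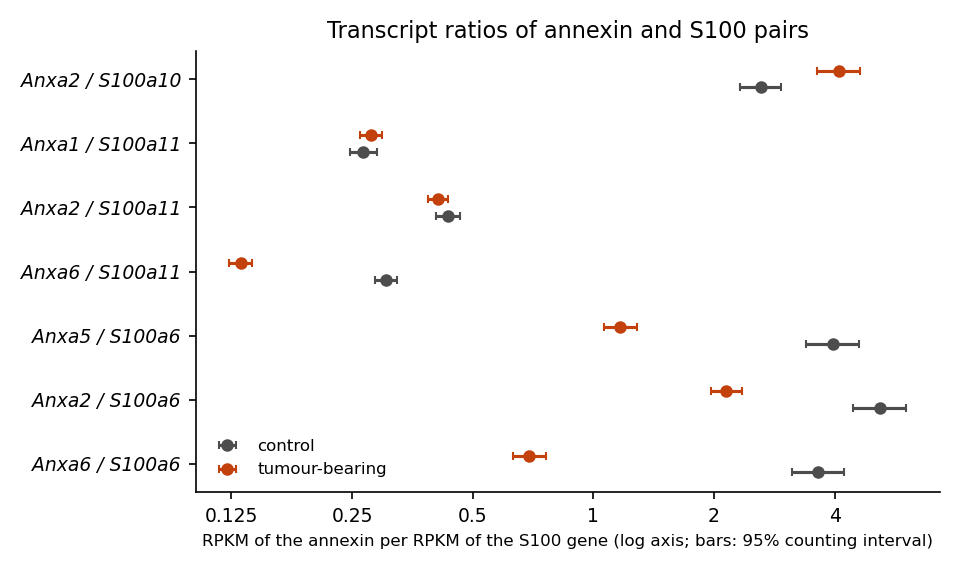
RPKM of an annexin per RPKM of an S100 gene for 7 pairs, control in grey and tumour-bearing in orange, log axis, with 95% counting intervals. The intervals of the libraries overlap for Anxa1 / S100a11 and Anxa2 / S100a11 and lie apart for the other 5 pairs.

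Of 5 further annexin genes, 4 were tested and all 4 had a log2 ratio above 0 (53.8% of all genes tested), 2 of them past 2-fold (9.38% of all genes). Anxa11 was at 79.7 and 91.3 RPKM, a ratio of 1.15 (1.05 to 1.25), and Anxa8 at 25 and 36.6 RPKM, a ratio of 1.47 (1.25 to 1.73). The genes past 2-fold were barely read. Anxa9 had 5 and 24 reads, a ratio of 4.75 (1.78 to 16). Anxa13 had 0 and 9 reads, with 1.96 as the lower limit of the exact interval of its ratio, and Anxa10 was in neither table.

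Of 15 other S100 and S100-related genes, 7 were tested, of which 0 were past 2-fold higher and 1 (S100a9) past 2-fold lower. The shares of all genes tested were 9.38% and 6.53%. S100a16 was at 18.4 and 37.3 RPKM, a direct ratio of 2.03 (1.60 to 2.58), and S100a14, an epithelial S100 gene, at 8.37 and 17.4 RPKM, a direct ratio of 2.08 (1.47 to 2.99). With 1 RPKM added their log2 ratios were 0.98 and 0.98, just inside the rule. S100a13 was at 34.1 and 48.2 RPKM, a ratio of 1.42 (1.13 to 1.78). S100a1 was at 217 and 231 RPKM, a ratio of 1.06 (0.960 to 1.18). S100g, the calcium-binding protein calbindin-D9k, was at 320 and 246 RPKM and was 1.30-fold higher in the control (1.17 to 1.44). S100pbp, which encodes an S100P-binding protein, was at 6.06 and 8.40 RPKM, with an interval of the ratio from 0.951 to 2.04.

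Several S100 genes had few reads or none. S100a9, a neutrophil and monocyte gene, had 5 control reads and 0 tumour-bearing reads. The interval of its ratio, 0 to 1.08, included 1. S100a4, also called fibroblast-specific protein, had 0 and 2 reads, and S100b, a glial S100 gene, 6 and 0. S100a2, S100a3, S100a5, S100a7a, S100a7l2, S100a8 and S100z were in neither table. Of 15 S100a genes on chromosome 3, 8 reached 1 RPKM in at least 1 library and 6 of these had a log2 ratio above 0, against 53.8% of all genes tested. Along the cluster, S100a6 at 3.17-fold stood 1109 bases from S100a5 and 37510 bases from S100a7a, both without reads.

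Annexins and S100 proteins act with calpains, ferlins, caveolae and the ESCRT machinery at damaged membranes. Of 22 genes of a membrane repair and annexin partner list, 19 were tested, with 2 at least 2-fold higher, 0 lower and a median log2 ratio of 0.17. The share higher is near the 9.38% of all genes tested, and 6.53% of all genes were lower. Capn2, a calpain catalytic subunit gene, was at 28 and 70.7 RPKM, 2.53-fold higher (2.27 to 2.81). Cav1, the caveolar coat gene and also on the list of markers of alveolar type 1 (AT1) cells, was at 33.1 and 74 RPKM, 2.24-fold higher (2.003 to 2.50). Cacybp, the gene of the S100A6-binding protein, was at 9.39 and 17.6 RPKM, 1.87-fold higher (1.47 to 2.39). Pdcd6, a calcium sensor that recruits ESCRT proteins, was at 13 and 21.3 RPKM, 1.64-fold higher (1.28 to 2.10), and Chmp4c, an ESCRT-III gene, had 39 and 68 reads, 1.73-fold higher (1.15 to 2.63).

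The Anxa2 and S100a10 tetramer binds plasminogen and its activator. Of 12 plasminogen activation genes, 8 were tested, with 4 at least 2-fold higher, 0 lower and a median log2 ratio of 1.08, where all genes tested gave 9.38%, 6.53% and 0.06. Plat and Serpine2 were among the 4. Plat, tissue plasminogen activator, had 5 and 83 reads, a ratio of 16.4 (6.77 to 52). Serpine2, a serine protease inhibitor gene, was at 38.6 and 87.1 RPKM, 2.26-fold higher (2.01 to 2.54). Plaur, the urokinase receptor gene, had 29 and 66 reads, a direct ratio of 2.25 (1.44 to 3.62), but its log2 ratio with 1 RPKM added was 0.998, just under the rule. Plgrkt, a plasminogen receptor gene, had 40 and 21 reads and was 1.92-fold higher in the control (1.11 to 3.43). The part of stromal and other non-epithelial cells in the levels of this list was not tested, nor was any link to the tetramer.

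Annexin A1 acts through formyl peptide receptors and on phospholipase A2. The receptor genes Fpr1, Fpr2, Fpr3 and Fpr-rs3 were in neither table. Of 13 genes of this list, 8 were tested, with 2 at least 2-fold higher, 1 lower and a median log2 ratio of 0.09, against 9.38%, 6.53% and 0.06 for all genes. The cyclooxygenase genes lay apart, Ptgs1 at 73.5 and 182 RPKM, 2.48-fold higher (2.31 to 2.66), and Ptgs2 at 69.9 and 14.7 RPKM, 4.76-fold lower (4.23 to 5.38). Pla2g4a, cytosolic phospholipase A2, was at 6.65 and 3.13 RPKM, a direct ratio 2.13-fold lower (1.49 to 3.06), but with 1 RPKM added its log2 ratio was -0.89, inside the rule. Tsc22d3, a glucocorticoid-induced gene, was at 30.4 and 53.1 RPKM, 1.75-fold higher (1.53 to 1.996). Dusp1, the most abundant gene of the list, went the other way, at 337 and 275 RPKM. Ptges, a prostaglandin E synthase gene, was at 16.7 and 23.6 RPKM, 1.41-fold higher (1.22 to 1.63).

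Several of the 10 genes are expressed by many lung cell types, and in bulk RNA a change in the share of a cell type and a change in RNA per cell cannot be told apart. Sftpc, the surfactant gene used in the sort, was at 94900 and 54970 RPKM, and Lyz2, which with Sftpc leads the AT2 list, at 21560 and 11440 RPKM. Summed marker levels, control first, were 150400 and 97330 RPKM for 15 AT2 genes, 5 of them with a log2 ratio above 0. For 17 AT1 genes they were 2266 and 3781 RPKM, all 17 with a log2 ratio above 0. The share above 0 over all genes tested was 53.8%. Ager and Gprc5a, the most abundant AT1 genes, were at 1148 and 1673 RPKM and at 336 and 587 RPKM. For 10 club secretory genes the sums were 38980 and 42440 RPKM, led by Scgb1a1 at 30140 and 35120 and Cbr2 at 6198 and 5269 RPKM. For 14 alveolar transitional genes they were 1477 and 1978 RPKM, led by Krt18 at 336 and 277 and Clu at 192 and 411 RPKM. For 11 ciliated genes they were 462 and 392 RPKM, led by Tppp3 at 212 and 138 and Ccdc153 at 57.1 and 61.9 RPKM. For 6 basal genes they were 44.3 and 41.1 RPKM, led by Krt15 at 21.5 and 12 and Krt5 at 15.7 and 18.4 RPKM.

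Summed levels of stromal markers were higher in the tumour-bearing library. For 12 fibroblast genes the sum was 29.3 and 482 RPKM, with all 10 tested genes at least 2-fold higher, against 9.38% of all genes tested. Lum, Tcf21 and Pi16 were at 0 in the control, and each of the 12 had reads in the tumour-bearing library. The most abundant, Mgp and Col3a1, were at 9.77 and 214 RPKM and at 2.66 and 73.5 RPKM. For 14 endothelial genes the sum was 118 and 261 RPKM, with 11 at least 2-fold higher (9.38% of all genes tested). Of the 14, 12 had a log2 ratio above 0 (53.8% of all genes tested) and 2 below 0. The list was led by Esam at 68.1 and 71.8 and Ramp2 at 8.60 and 28.5 RPKM. For 6 mesothelial genes it was 4.24 and 20 RPKM, led by Msln, mesothelin, at 1.49 and 16.6 and Upk1b at 2.12 and 2.94 RPKM. For 8 smooth muscle and pericyte genes it was 3.82 and 15.3 RPKM, led by Pdgfrb at 0.346 and 6.55 and Des at 2.08 and 3.52 RPKM, with Acta2, Myh11, Cnn1 and Cspg4 at 0 in the control. The part of these cells in the levels of the 10 genes was not tested.

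For 9 pan-leukocyte genes the sum was 88.7 and 56.4 RPKM, most of it Lcp1 at 82.7 and 50.3 RPKM, with Tyrobp at 2.56 and 2.22 RPKM, and Ptprc, which encodes the CD45 used in the sort, had 12 and 2 reads. For 12 macrophage and monocyte genes it was 40.6 and 107 RPKM. Of the 7 tested, 6 had a log2 ratio above 0, where the share over all genes tested was 53.8%. Beyond 2-fold lay 4 on the upper side and 1 on the lower side, the latter with a log2 ratio of -1.71. The corresponding shares of all genes tested were 9.38% and 6.53%. Ly6c2 was at 24.9 and 56.4 RPKM, 2.27-fold higher (1.82 to 2.85), and Cd68 at 7.81 and 31.5 RPKM, 4.03-fold higher (2.86 to 5.80). C1qb, C1qc and Ccr2 were at 0 in the control only, Chil3 in the tumour-bearing library only, and Adgre1, Mrc1 and Marco in both. For 10 neutrophil genes the sum was 5.08 and 3.52 RPKM, led by Retnlg at 1 and 8 reads and Cxcr2 at 28 and 12 reads, with S100a8, Ly6g and Elane at 0 in both. For 13 T, NK and B cell genes it was 22.9 and 18.2 RPKM, nearly all of it Cd79b at 22.1 and 17.3 RPKM, with Cd3d at 5 and 1 reads. For 8 erythroid and platelet genes it was 16.8 and 29 RPKM, led by Hbb-bs at 9.68 and 17.1 and Hba-a2 at 5.11 and 2.21 RPKM. The part of these cells too was not tested.

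**Figure D5:**
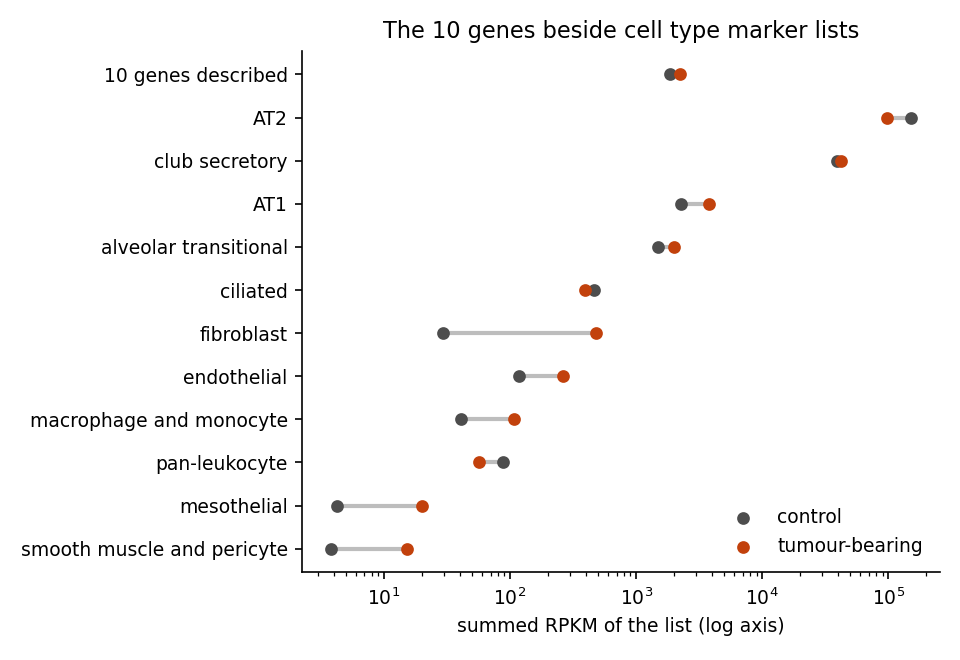
Summed RPKM of the 10 genes and of marker lists of lung cell types (rows), control in grey and tumour-bearing in orange, on a log axis. The fibroblast list moves from 29.3 to 482 RPKM and the 10 genes from 1847 to 2245 RPKM.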

How the data were processed

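The authors deposited 1 table per library with GeneID, symbol, description and RPKM, per the file headers. The submitters' processing notes name Trimmomatic and mm10, without versions. The sources used here name no aligner, counter, annotation or strand setting, so reads of overlapping antisense genes (beside Anxa1, Anxa2 and Anxa4) cannot be told apart. Oligo(dT) selection and PCR were used, per the labels' protocols. Sftpc held 18.6% and 11.2% of all RPKM, and values were compared without rescaling. Genes absent from 1 table counted as 0 there.

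Whole reads were recovered from the steps of the RPKM values. Totals of 5335352 (control) and 5387114 reads were the largest at which the last 200 rows, taken as 1 read each, gave whole gene lengths (over 99% of rows, within 0.02 bases). These are estimates and not the authors' values, and another multiple or fraction of them would narrow or widen the intervals. Reads followed for 15097 genes (99.89%, each within at most 0.001 of a whole read), and 46 of 28181 neighbouring rows were out of order. The order had settled multiples, so it is no independent check. The scripts were tested on simulated data built with these totals and the lengths they imply, which therefore cannot check either. Ratio intervals are exact conditional binomial, level intervals exact Poisson and pair intervals normal on the log scale.

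The main measure was the log2 ratio of RPKM with 1 added, over genes reaching 1 RPKM in either library. The text names all 10 members, all genes of the lists of other annexins and other S100 genes, Sftpc, Ptprc and Ager, up to 5 genes per partner list with the widest log2 ratio at 5 RPKM or more, and marker lists by sums and their 2 most abundant genes. A gene of a partner list is not reported here. S100a2, Dusp1 and marker genes at 0 were named after their values were seen. The members and lists were chosen with earlier results of these data known. Symbols, positions and promoters came from RefSeq GRCm38.p6. Python 3.11.15, numpy 2.4.6, pandas 2.3.3 and scipy 1.17.1 were used.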

Additional observations from a re-analysis of the deposited data

How the results depend on the processing

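S100a6 was past 2-fold higher, and no member past 2-fold lower, with a pseudocount of 0.1 or 5, trimmed-mean or upper-quartile scaling, centring on the median, all 15113 genes unfiltered, a minimum of 5 RPKM, recovered reads with 0.5 added, and a counting interval wholly past 2-fold. The exceptions were other thresholds. At 4-fold the number of members higher was 0, and at 1.5-fold the number lower was 1 (Anxa6). The median log2 ratio of the 10 ranged from 0.16 with upper-quartile scaling to 0.27. Log2 ratios kept their sign for each of the 10 genes under these 8 alternatives to the measure. Those of S100a6 ran from 1.54 to 1.66, of Anxa6 from -0.83 to -0.70, of Anxa5 from -0.20 to -0.09 and of Anxa7 from 0.04 to 0.14. With upper-quartile scaling 5 genes moved past their counting interval, Anxa2 to 0.29, Anxa4 to -0.32, Anxa5 to -0.20, Anxa6 to -0.83 and S100a11 to 0.37. In a check chosen after seeing the data, the counting interval lay above 1 for 5 members and below 1 for 4 (3 as deposited, the added one being Anxa5) under each of the 3 scalings, and with upper-quartile scaling for 27.8% and 31.8% of all genes. Over all genes, 1153 were at least 2-fold higher and 802 lower. These counts became 370 and 190 with a pseudocount of 5, 687 and 419 with a minimum of 5 RPKM, 2383 and 1978 at 1.5-fold, and 204 and 75 at 4-fold. The number lower became 1247 with a pseudocount of 0.1, 1282 with recovered reads and 460 with the interval rule. No paired analysis was possible because each group holds 1 library, and for the same reason no library could be left out. S100a6 and S100a10 rest on the fewest reads of the 10, 186 and 596 for the first and 333 and 282 for the other.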
